A study of Mus musculus with 12 samples.

Results

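The 36 genes described here encode aminoacyl-tRNA synthetases, 20 of them cytosolic and 16 mitochondrial, and were picked by name from a table of 43686 rows of mouse heart RNA-seq. All 36 names had a row, and all 36 passed the filter on low counts. A pair of enzymes, Gars (glycine) and Kars (lysine), is known to serve both compartments from 1 gene and was kept with the cytosolic ones. Tarsl2, a second threonine enzyme, is in the table but was not on the list of names, and its values are given separately at the end.

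Aminoacyl-tRNA synthetases join each amino acid to its own tRNA, the step that fixes the genetic code before the ribosome is reached. Animal cells hold separate enzymes for the cytosol and for mitochondria, all encoded in the nucleus, and the mitochondrial set serves the few proteins of the respiratory chain that mitochondria make themselves. In the cytosol, 8 of the enzymes are bound with scaffold proteins into the multisynthetase complex, while the others work outside it. Many of the cytosolic genes are known targets of ATF4, the transcription factor of the amino acid and stress response, which binds C/EBP-ATF response elements in promoters.

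Ventricular wall RNA came from 6 wild-type (WT) and 6 mutant (KO) mice. Per the labels the mice were of strain C57BL/6, aged 2 months, and wild type or Sdhaf4-/-, while the study's methods give the WT mice as Sdhaf4 fl/fl without Cre and the KO mice as Sdhaf4 fl/fl with Ckmm-Cre, so the floxed alleles are shared by both groups and the Cre was not carried by the controls. Ckmm-Cre is driven by the muscle creatine kinase promoter, which is active in heart and skeletal muscle and not in the fibroblasts, endothelial cells or macrophages that a piece of ventricle also holds. The methods give the controls as littermates and the mice of the omics work as male. The ages that the study gives for this work differ from each other, and not all of them match the labels. Sdhaf4 encodes an assembly factor of succinate dehydrogenase (complex II).

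Library totals ran from 23747014 to 27159228 counts in WT and from 26542930 to 31393393 in KO. Sdhaf4 was measured at 14.3 to 30.3 CPM (counts scaled to a common library size with TMM factors) in WT (median 26.7) and at 2.25 to 2.73 in KO (median 2.35), with no overlap (log2 fold change -3.39, adjusted p = 1.947e-10), in the direction of the labels. The quasi-likelihood test of edgeR was run on KO against WT over 17155 rows, and a gene was called at an adjusted p under 0.05. The median log2 fold change of all rows was 0.00, with quartiles at -0.30 and 0.30. Cardiomyocyte markers were high in every library (summed CPM of 10 markers 53810 to 58570 in WT and 43480 to 59500 in KO). The summed CPM of 3 atrial markers was 1.49 to 3.07 in WT and 3.03 to 4.50 in KO (Myl4 called higher, Myl7 and Sln under 1 CPM in each library). That of 5 skeletal muscle markers was 1.25 to 10.2 in WT and 0.83 to 4.57 in KO. Of the 2 that were tested, Mylpf was called lower (0.77 to 2.88 CPM in WT, 0.10 to 0.75 in KO) and Tnnt3 was not called. The 8 fibroblast markers were all called higher in KO, with summed CPM of 1420 to 1670 in WT and 2584 to 4867 in KO, and 6 of 10 cardiomyocyte markers were called lower. Over all rows tested, 25.6% were called higher and 25.5% lower. Of 6 endothelial markers, 4 were called higher and 1 lower, and of 6 mural markers, 2 were called higher and 1 lower. Of 5 macrophage markers, 2 were called lower and 0 higher. These libraries are of whole tissue, in which fewer cells of a type and less RNA per cell cannot be told apart, and the part that cell composition has in the values below was not tested.

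Promoter sequences of the members were read from RefSeq (GRCm38.p6), which held a window from 250 bases before to 50 bases after the start for 27 of the 36 genes (13 cytosolic and 14 mitochondrial). Each window was searched on both strands for the core of the C/EBP-ATF response element, TGATGNAA (reverse complement TTNCATCA), which was present in the windows of 4.51% of all 27025 genes. It was present in 5 of the 13 cytosolic members (Aars, Gars, Yars, Iars and Tars) and in 0 of the 14 mitochondrial members. Of the 6 cytosolic genes called higher in KO below, 4 had a window and 3 of these, Aars, Gars and Yars, held the core, while Sars did not. Iars and Tars, which also held it, were not called. These stretches are shown because they are what the called genes Aars, Gars and Yars share beyond their name, and those of Iars and Tars for comparison. Each is given 5′ to 3′ on the strand of its gene, with the matched core in capitals, and positions are counted from the first transcribed base as 1, with no 0.
Gars, chr6:55037921-55038000, plus strand, core beginning at base -30: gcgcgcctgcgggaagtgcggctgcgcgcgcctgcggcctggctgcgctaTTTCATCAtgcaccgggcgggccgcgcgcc
Aars, chr8:111033680-111033787, plus strand, core beginning at base -112: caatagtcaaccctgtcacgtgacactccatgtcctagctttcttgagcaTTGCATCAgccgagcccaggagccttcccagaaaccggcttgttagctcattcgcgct
Aars, chr8:111033840-111033869, plus strand, a second core beginning at base 10: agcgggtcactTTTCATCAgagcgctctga
Yars, chr4:129189895-129189924, plus strand, core beginning at base 4: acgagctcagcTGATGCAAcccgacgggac
Iars, chr13:49682126-49682155, plus strand, core beginning at base 8: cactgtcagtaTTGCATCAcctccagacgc
Tars, chr15:11399659-11399723, minus strand, core beginning at base -15: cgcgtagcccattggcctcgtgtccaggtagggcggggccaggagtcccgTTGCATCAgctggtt
The same 8 bases were found in Aars (first core), Iars and Tars as TTGCATCA and in Yars as their reverse complement TGATGCAA, while Gars and the second core of Aars read TTTCATCA. The core of the motif of NRF1, a regulator of nuclear genes for mitochondria, GCATGCGC (reverse complement GCGCATGC), was present in 3 of the 14 mitochondrial members (Wars2, Rars2 and Vars2) and in 0 of the 13 cytosolic ones, against 3.05% of all genes, and none of the 3 was called. The core of the element of the estrogen-related receptors, AAGGTCA (reverse complement TGACCTT), was in 0 of the 27 members and 5.38% of all genes. No window was matched for Cars, Hars, Lars, Nars, Rars, Vars, Wars, Hars2 or Pars2. The window of Aars surrounds a start that lies inside the RefSeq span of the gene. A match describes these letters only, and binding was not measured.

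The cytosolic enzymes moved in both directions in the KO hearts. Of the 20, 6 were called higher (Nars, Sars, Aars, Gars, Yars and Cars), 8 were called lower (Farsb, Kars, Qars, Dars, Eprs, Lars, Wars and Mars) and 6 were not called. As shares of the 20, this is 30.0% higher and 40.0% lower, where 25.6% of all rows tested were called higher and 25.5% lower. Among the 10534 rows with a mean of at least 6.42 CPM, the level of the lowest member, the shares were 30.2% higher and 30.3% lower. The share of cytosolic members called higher lay at this background. The larger share called lower rests on 8 genes, of which Mars lost its call under 2 alternative fits, and was not tested against the background. The median log2 fold change of the 20 was -0.02, and their summed CPM overlapped between the groups (1215 to 1279 in WT, 1190 to 1285 in KO). With the study's stricter pair of thresholds (adjusted p below 0.005, log2 fold change beyond 1 in either direction), which 10.2% of all rows passed, 0 of the 20 cytosolic members were called, against 14 at the threshold of 0.05.

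Enzymes of the multisynthetase complex and cytosolic enzymes outside it gave different counts of calls. Of the 8 enzymes of the complex, 6 were called lower, 0 higher and 2 not called (median log2 fold change -0.22). Of the 12 cytosolic genes outside it, 6 were called higher, 2 lower and 4 not called (median 0.14). Among the rows at the members' level, 30.2% were called higher and 30.3% lower. Neither set was tested against these shares, and both hold few genes. The summed CPM of the 8 complex enzymes was 603.2 to 657.9 in WT and 521.0 to 572.9 in KO, and that of the other 12 was 599.3 to 633.5 in WT and 668.8 to 724.3 in KO, so that neither sum overlapped between the groups. Counted within each library, which needs no scaling between libraries, the 8 complex enzymes took 50.6% ± 0.69 (SD, n = 6) of all cytosolic synthetase counts in WT and 43.6% ± 0.61 (SD, n = 6) in KO. The difference between the 2 sets of genes is a description and was not tested. By structural class, 2 of 9 class I cytosolic enzymes were called higher and 4 lower, and of 10 class II enzymes 4 were called higher and 3 lower. These are 22.2% higher and 44.4% lower for class I and 40.0% and 30.0% for class II, beside 30.2% and 30.3% of the rows at the members' level (Eprs, whose 2 activities belong to different classes, was left out).

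**Figure D1:**
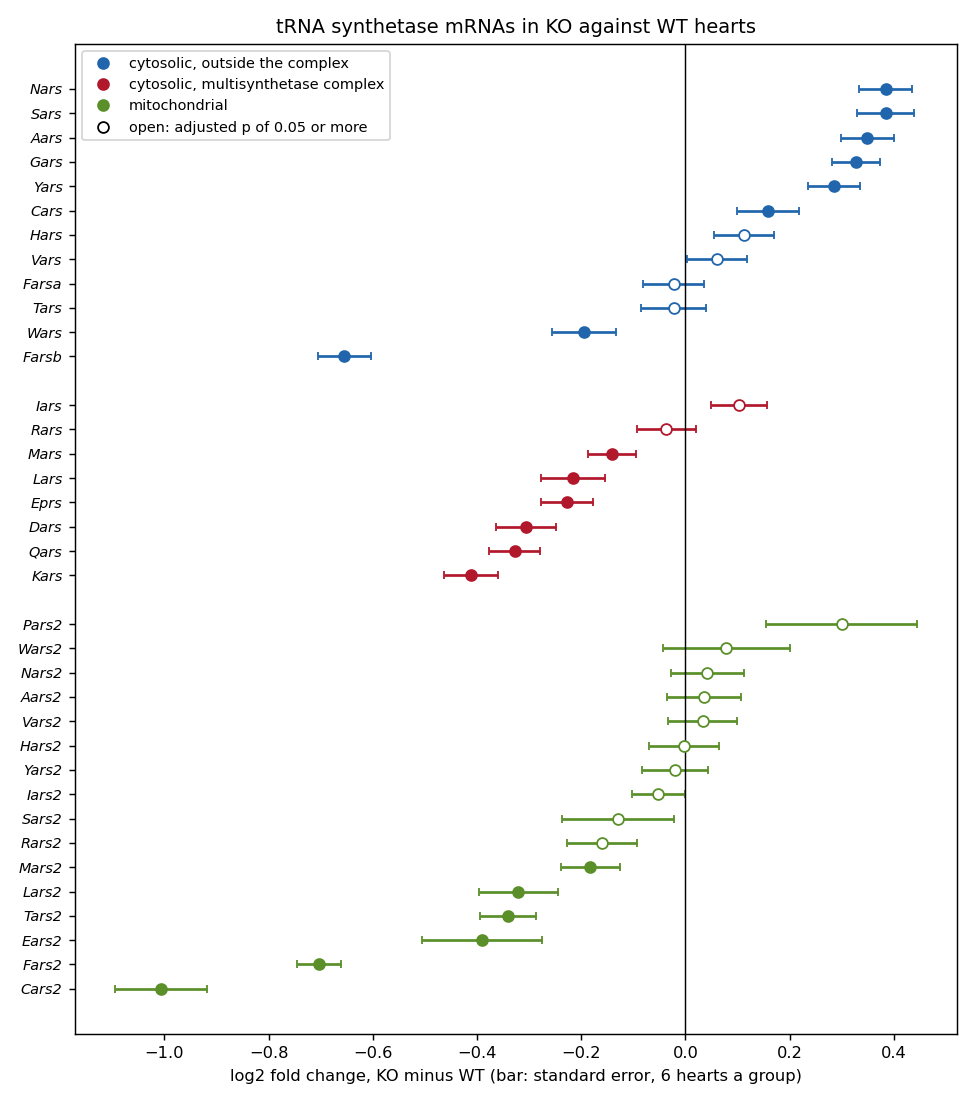
The log2 fold change of each of the 36 synthetase genes (x axis, KO minus WT, point and standard error, 6 hearts in each group), in 3 blocks of genes (y axis): cytosolic outside the multisynthetase complex, cytosolic within it, and mitochondrial. Filled points are called at an adjusted p under 0.05. The called genes outside the complex lie on both sides of 0, from -0.65 for Farsb to 0.38 for Nars, and every called gene of the other 2 blocks lies below 0.

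Among the cytosolic genes called higher, Nars (asparagine; chr18:66285808-66304350 on the C57BL/6NJ assembly, as are the positions of genes that follow) was measured at 97.98 to 114.0 CPM in WT (median 109.2) and at 129.7 to 150.1 in KO (median 139.4). No KO heart overlapped the WT hearts (log2 fold change 0.38, SE 0.05, adjusted p = 7.664e-06). Sars (serine; chr3:114081543-114101862) ran from 81.4 to 87.8 CPM in WT (median 84.3) and from 98.9 to 123.5 in KO (median 106.9). The groups did not overlap here either, and the fold change was the same as that of Nars to 2 decimals (log2 0.38, SE 0.05, adjusted p = 1.783e-05). Aars (alanine; chr8:117752189-117777906) was at 66.6 to 75.6 CPM in WT (median 70.3) and at 83.7 to 97.7 in KO (median 89.6), again without overlap (log2 fold change 0.35, SE 0.05, adjusted p = 2.356e-05). The window of Aars searched above holds a pair of response element cores, the second of them after the start. That start lies inside the RefSeq span of the gene.

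Gars, whose product charges glycine in cytosol and mitochondria (chr6:55645249-55691915), ran from 61.9 to 68.2 CPM in WT (median 65.8) and from 76.7 to 86.3 in KO (median 82.4). All 6 KO hearts were above all 6 WT hearts (log2 fold change 0.33, SE 0.05, adjusted p = 1.514e-05). Yars (tyrosine; chr4:136014538-136049138) ran from 30.0 to 33.6 CPM in WT (median 32.0) and from 36.7 to 41.0 in KO (median 38.7), without overlap (log2 fold change 0.28, SE 0.05, adjusted p = 0.0001384). Yars shares bases with the row C77080 on the other strand (mean 5.95 CPM in WT and 9.09 in KO), and no source says whether reads were counted by strand. Cars (cysteine; chr7:154229668-154274308) was at 21.3 to 23.2 CPM in WT (median 22.3) and at 22.4 to 27.1 in KO (median 25.3). The groups of Cars overlapped (log2 fold change 0.16, SE 0.06, adjusted p = 0.03322). Of 22 alternative fits, 10 did not call it, and 8 of these left out 1 library. The libraries whose removal lost it were KO replicates 1, 2, 3 and 6 and WT replicates 1, 2, 3 and 5, with adjusted p of up to 0.0841 over all alternatives. Among the 6 KO libraries, replicate 4 had the lowest value in 5 of these 6 genes.

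Among the cytosolic genes called lower, Farsb had the largest fall. It encodes the beta subunit of the phenylalanine enzyme (chr1:82184114-82256454) and was at 39.4 to 45.8 CPM in WT (median 43.1) and at 26.95 to 27.8 in KO (median 27.5), a narrow range below every WT heart (log2 fold change -0.65, SE 0.05, adjusted p = 1.912e-08). Farsa, the alpha subunit, with which it forms the working enzyme, was at 18.95 to 21.3 CPM in WT (median 20.4) and at 18.5 to 21.0 in KO (median 19.97), and was not called (log2 fold change -0.02, SE 0.06, adjusted p = 0.7757). The count of Farsb over that of Farsa was 2.13 ± 0.073 (SD, n = 6) in WT and 1.38 ± 0.062 (SD, n = 6) in KO, without overlap, a comparison chosen after the values were seen and given with no test. Every KO heart was below every WT heart for Farsb, while for Farsa the groups overlapped.

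Kars, whose product charges lysine in both compartments and sits in the complex (chr8:118843291-118861588), was at 111.1 to 123.9 CPM in WT (median 113.2) and at 81.4 to 94.7 in KO (median 83.2). No KO heart reached the WT range (log2 fold change -0.41, SE 0.05, adjusted p = 4.134e-06). The 2 genes that serve both compartments, Gars and Kars, therefore moved in opposite directions. Qars (glutamine, in the complex; chr9:113483196-113491424) ran from 63.1 to 73.95 CPM in WT (median 69.3) and from 52.2 to 58.2 in KO (median 54.3), without overlap (log2 fold change -0.33, SE 0.05, adjusted p = 3.204e-05). The other 5 cytosolic genes called lower were Dars (aspartate, log2 fold change -0.31), Eprs (glutamate and proline, -0.23), Lars (leucine, -0.22), Wars (tryptophan, -0.19) and Mars (methionine, -0.14). Of these, Lars and Mars did not overlap between the groups and Dars, Eprs and Wars did. The call of Mars (adjusted p = 0.01798) was lost without a filter on low counts (adjusted p = 0.0503), and Mars shares bases with Ddit3, a stress gene on the other strand that was higher in KO (log2 fold change 0.95). The 6 cytosolic members not called were Hars (histidine, log2 fold change 0.11), Iars (isoleucine, 0.10), Vars (valine, 0.06), Farsa, Tars (threonine, -0.02) and Rars (arginine, -0.04).

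Over all 20 cytosolic members, 5 had every KO heart above every WT heart and 5 had every KO heart below. Among all rows tested, 14.9% had all KO hearts above and 15.2% had all below.

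**Figure D2:**
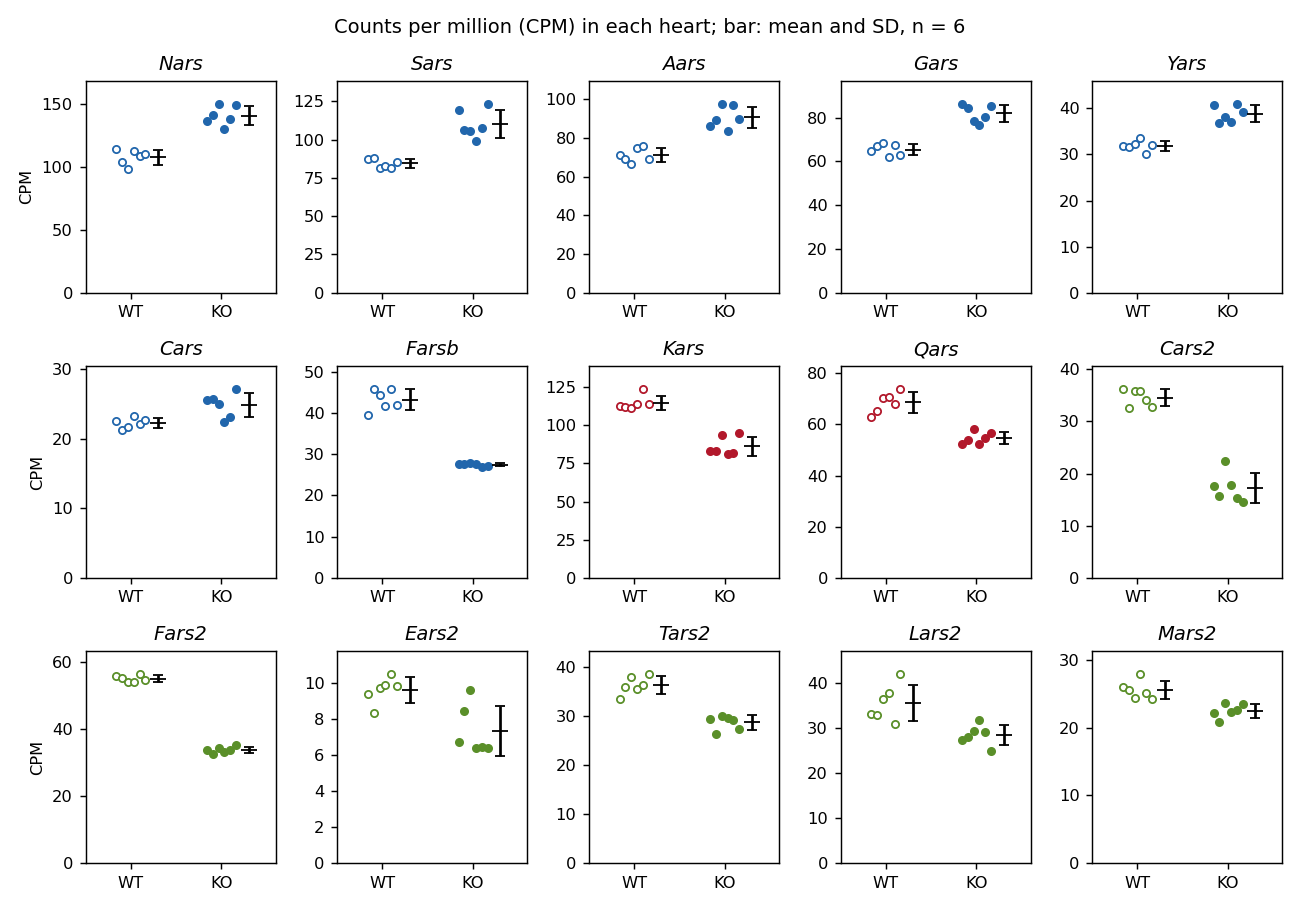
CPM (y axis, from 0) in each heart for the 15 synthetase genes given with their ranges, with WT as open and KO as filled points and the mean and SD of 6 hearts beside them. In the first 5 panels (Nars to Yars) all KO points lie above the WT points; those of Cars overlap. In the panels of Farsb, Kars, Qars, Cars2, Fars2, Tars2 and Mars2 all KO points lie below, and those of Ears2 and Lars2 overlap.

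The mitochondrial enzymes moved in 1 direction where they were called. Of the 16, 0 were called higher, 6 were called lower (Cars2, Fars2, Ears2, Tars2, Lars2 and Mars2) and 10 were not called, with a median log2 fold change of -0.09. The shares of 0% higher and 37.5% lower compare with 30.2% and 30.3% of the rows at or above the level of the lowest member. Neither share was tested against this background, and both rest on few genes. At an unadjusted p under 0.05 in edgeR, 0 of the 16 were higher. Pars2 (proline, log2 fold change 0.30) lay just past that cutoff (unadjusted p = 0.05438, adjusted p = 0.09514). With DESeq2 and limma-voom in place of edgeR the count called higher was also 0. Pars2 was called higher when KO replicate 4 was left out (adjusted p = 0.0169). The summed CPM of the 16 was 462.9 to 488.9 in WT and 407.7 to 440.5 in KO, without overlap and with KO replicate 3 the highest of the KO libraries. Relative to the cytosolic counts of the same library, the mitochondrial counts stood at 38.5% ± 0.97 (SD, n = 6) in WT and 33.6% ± 1.21 (SD, n = 6) in KO. Most of the difference came from a pair of genes: of a summed mean difference of -62.7 CPM (-13.0%), Fars2 and Cars2 together gave -38.6 CPM, or 61.5%.

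Cars2, the mitochondrial cysteine enzyme (chr8:9076516-9115006), had the largest change of the 36 members. It was at 32.6 to 36.2 CPM in WT (median 34.96) and at 14.6 to 22.4 in KO (median 16.6), with KO replicate 3 the highest of the mutants and still below every WT heart (log2 fold change -1.01, SE 0.09, adjusted p = 7.766e-08). It was the 1 member of the 36 past the stricter threshold, in 19 of 22 alternative fits as well. Its row shares bases with Carkd, a neighbour on the other strand at 39.2 CPM in WT and 36.5 in KO on average. Fars2, the mitochondrial phenylalanine enzyme, a single chain unlike its cytosolic counterpart (chr13:35566741-35919025), ran from 53.8 to 56.4 CPM in WT (median 54.97) and from 32.5 to 35.1 in KO (median 33.8). Its range within each group was narrow against the gap between them (log2 fold change -0.70, SE 0.04, adjusted p = 1.191e-09).

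Tars2 (threonine; chr3:100060778-100081073) was at 33.4 to 38.6 CPM in WT (median 36.2) and at 26.4 to 29.96 in KO (median 29.4), without overlap (log2 fold change -0.34, SE 0.05, adjusted p = 5.462e-05). Lars2 (leucine; chr9:129905513-130007288) ran from 30.99 to 42.0 CPM in WT (median 34.8) and from 24.98 to 31.8 in KO (median 28.6). The highest KO heart of Lars2 was above the lowest WT heart (log2 fold change -0.32, SE 0.08, adjusted p = 0.001946). Ears2 (glutamate; chr7:131081021-131111558) ran from 8.35 to 10.5 CPM in WT (median 9.79) and from 6.38 to 9.64 in KO (median 6.60), 2 KO hearts lying within the WT range (log2 fold change -0.39, SE 0.12, adjusted p = 0.009129). Ears2 shares bases with Ubfd1, on the other strand at 47.2 CPM in WT and 40.8 in KO on average. Mars2 (methionine; chr1:57239719-57251012) was at 24.2 to 27.9 CPM in WT (median 25.3) and at 20.8 to 23.7 in KO (median 22.4), without overlap (log2 fold change -0.18, SE 0.06, adjusted p = 0.01254).

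The 10 mitochondrial members not called spread around 0. Beside Pars2, they were Wars2 (tryptophan, log2 fold change 0.08), Nars2 (asparagine, 0.04), Aars2 (alanine, 0.04), Vars2 (valine, 0.03), Hars2 (histidine, 0.00), Yars2 (tyrosine, -0.02), Iars2 (isoleucine, -0.05), Sars2 (serine, -0.13) and Rars2 (arginine, -0.16). Rars2 lay just past the threshold (adjusted p = 0.05495) and was called lower under 4 alternatives: upper quartile scaling (adjusted p = 0.0444), removal of the unannotated loci (adjusted p = 0.0442), and removal of WT replicate 2 or of WT replicate 4. Over the 16 mitochondrial members, 0 had all KO hearts above the WT hearts and 4 (Cars2, Fars2, Tars2 and Mars2) had all below, where the shares over all rows were 14.9% and 15.2%. Iars2 and Hars2 share bases with Rab3gap2 and with Hars on the other strand, so their values are uncertain to that extent. In all, 18 of the 36 members overlap another row, and in 11 of these the other rows had a mean under 1 CPM.

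Levels of different genes were compared per length with the deposited FPKM (counts scaled for the length of the gene and the size of the library). In WT the highest members by median were Dars at 52.9 to 59.8 FPKM (median 58.0), Qars at 52.9 to 64.1 (median 57.4) and Kars at 51.7 to 57.2 (median 53.6), all enzymes of the complex. Next came Eprs (median 49.7), Gars (49.3), Sars (47.3) and Nars (41.2), and the first mitochondrial gene, Iars2, stood in place 8 (40.6). The lowest were Mars2 (median 2.25), Ears2 (2.86) and Pars2 (3.42). The median level was 34.7 FPKM over the 20 cytosolic members and 13.4 over the 16 mitochondrial ones. Of the 35 pairs of neighbours in this order, 6 had ranges that did not overlap, and the ranges of the others overlapped. Neighbours were not tested against each other. In KO the first 3 places were held by Gars (median 62.0), Sars (60.3) and Nars (53.4), none of them in the complex, followed by Qars (46.1), Dars (45.8) and Eprs (42.6), with Kars in place 8. Cars2 went from place 24 in WT to 28 in KO, Fars2 from 10 to 19 and Farsb from 11 to 18. The order rests on the gene length that was used: for 27 members the length behind the FPKM was shorter than the length given in the table. With the table's length, 11 members moved by over 5 places in WT (at most 11), while 9 of the 10 highest were the same. The first 3 places in WT were then held by Kars, Dars and Nars, the last of which is outside the complex. Qars stood in place 9, and Fars2, in place 4, was the first mitochondrial gene. The lowest were then Pars2 (median 1.80), Wars2 (1.96) and Ears2 (2.00), with Mars2 in place 33. The order in KO was read from the deposited FPKM only.

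**Figure D3:**
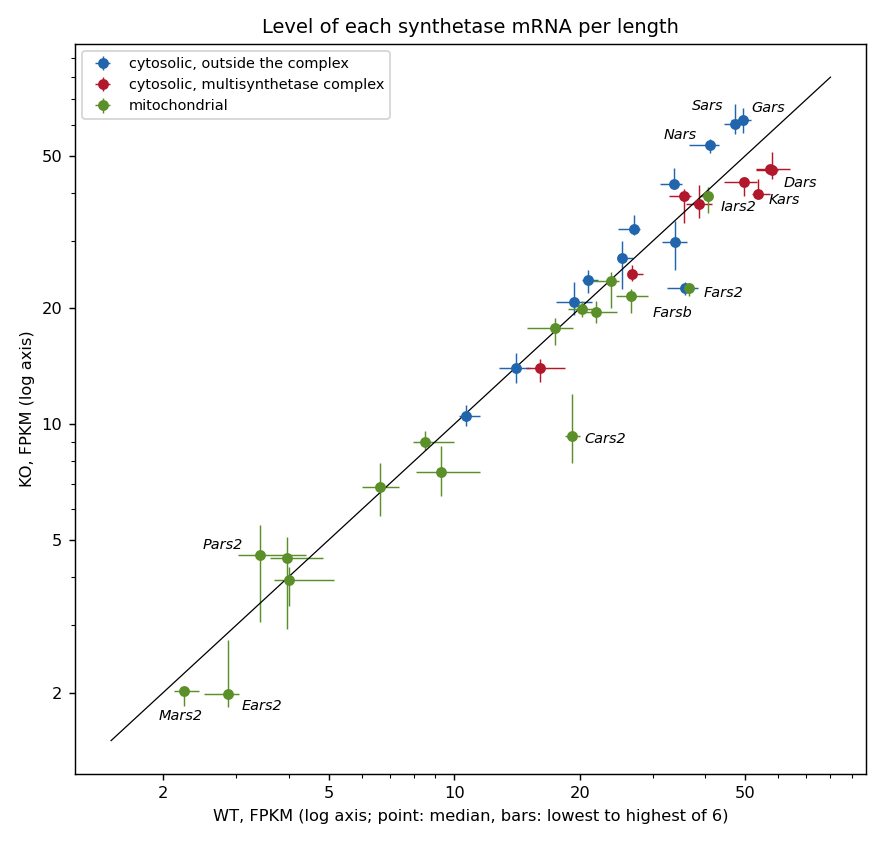
Median level of each synthetase gene in KO (y axis) against WT (x axis) in deposited FPKM, both on log axes, with bars from the lowest to the highest of 6 hearts and the line of equal level. Gars, Sars and Nars lie above the line at the upper end, Dars and Kars below it, and Cars2, Fars2 and Farsb lie farthest below it.

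To set each cytosolic enzyme against its mitochondrial counterpart, the log2 ratio of their counts was taken within each library for 16 pairs (Eprs entered with Ears2 and again with Pars2, and Farsa stood for the cytosolic phenylalanine enzyme). KO and WT were compared by a two-sided exact permutation test of 1 pair at a time, unadjusted over the 16 pairs, whose smallest possible p is 0.002165. The ratio was higher in KO at p under 0.05 in 7 pairs and lower in 1, and 14 of the 16 differences were above 0. The ratios use the same counts as the calls above. Over all rows, 25.6% were called higher and 25.5% lower, and the share of other gene pairs that would pass was not computed. The pairs share no gene except through Eprs. The ratio Cars/Cars2 moved most, from -0.73 to -0.54 in WT (mean -0.64) to 0.16 to 0.89 in KO (mean 0.54), a difference of 1.18 (exact permutation p = 0.002165). In every WT heart Cars2 had more counts than Cars, and in every KO heart Cars had more than Cars2. These counts are not scaled for gene length. By deposited FPKM, Cars was above Cars2 in WT as well (20.3 to 22.1 against 18.5 to 20.1). With the other gene length described above, the WT medians were 6.93 for Cars and 18.9 for Cars2. Which of these genes is higher in WT therefore depends on the length used. The ratio Farsa/Fars2 was -1.53 to -1.37 in WT and -0.87 to -0.63 in KO (difference 0.68, exact permutation p = 0.002165), with Fars2 above Farsa in counts throughout. This shift depends on the subunit chosen: with Farsb in place of Farsa, a choice added after the values were seen, the ratio was -0.50 to -0.27 in WT and -0.38 to -0.24 in KO (difference 0.05, exact permutation p = 0.2532), and 6 pairs were higher.

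Serine, asparagine and tyrosine gave the other 3 pairs whose groups did not overlap, with differences of 0.51 for Sars/Sars2, 0.34 for Nars/Nars2 and 0.30 for Yars/Yars2 (exact permutation p = 0.002165 each). In these pairs the cytosolic gene was called higher and the mitochondrial one was not called. Tars/Tars2 (difference 0.32, exact permutation p = 0.004329) and Aars/Aars2 (0.32, exact permutation p = 0.008658) were higher with overlapping groups. For Tars/Tars2 it was the mitochondrial gene that was called. The 1 ratio that was lower in KO was Eprs/Pars2 (difference -0.52, exact permutation p = 0.01515). For the other 8 pairs the exact p was 0.05411 or more, with differences from -0.27 for Wars/Wars2 to 0.18 for Eprs/Ears2.

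**Figure D4:**
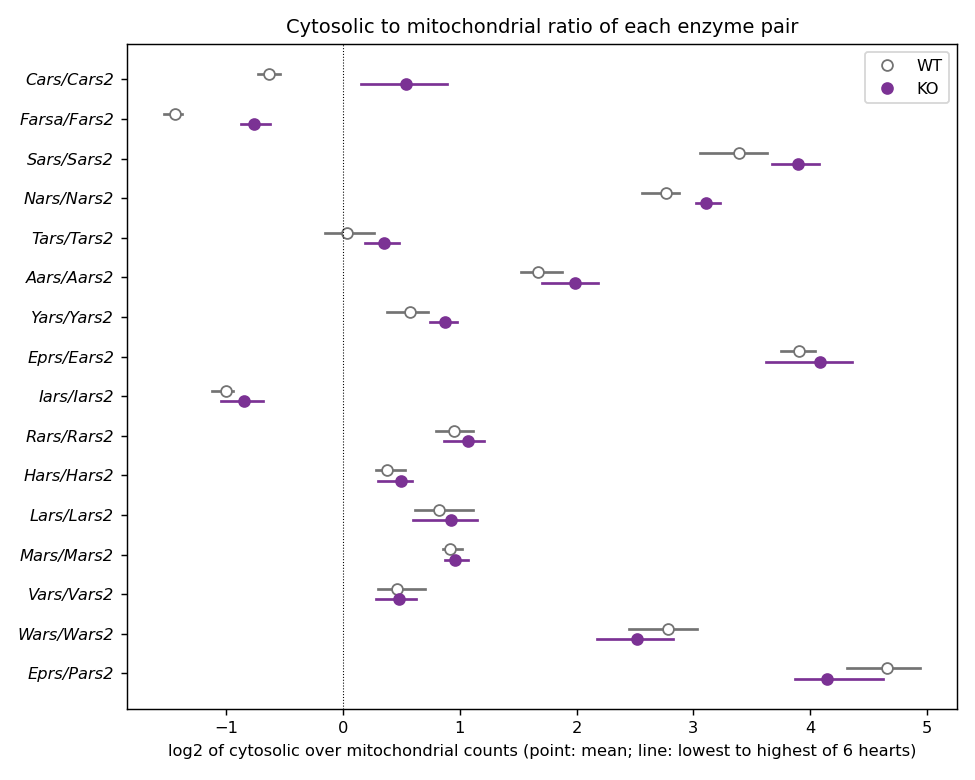
The log2 ratio of cytosolic to mitochondrial counts within a library (x axis) for each of 16 enzyme pairs (y axis, ordered by the difference between the groups), with the mean as a point and a line from the lowest to the highest of 6 hearts. Open grey points are WT and filled purple points are KO. The lines of Cars/Cars2, Farsa/Fars2, Sars/Sars2, Nars/Nars2 and Yars/Yars2 do not overlap between the groups. Cars/Cars2 crosses 0 in counts, which are not scaled for gene length.

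Other genes of tRNA charging and translation were read from the same fit, as lists whose members were written from general knowledge and counted without a test of the list. Their counts stand beside the shares of 25.6% of all rows called higher and 25.5% lower, or 30.2% and 30.3% at the members' level. Of the 3 scaffold proteins of the multisynthetase complex, 0 were called in either direction (median log2 fold change -0.10), while 6 of its 8 enzymes were called lower. Of 4 genes that amidate or formylate mitochondrial aminoacyl-tRNA, 2 were called lower, Gatb (log2 fold change -0.49) and Gatc (-0.27), subunits of the amidotransferase that completes glutamine tRNA in mitochondria, and its remaining subunit Qrsl1 was not called (0.11, adjusted p = 0.1902). Of 3 tested proofreading genes, which clear wrongly charged tRNA, 2 were called lower, Dtd1 (-0.45) and Prorsd1 (-0.40), and Aarsd1 was under 1 CPM and not tested.

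Of 14 genes that process or modify mitochondrial tRNA, 6 were called lower (42.9%) and 1 higher (median -0.13), on few genes. The 3 with the smallest p were Hsd17b10, a subunit of mitochondrial RNase P (log2 fold change -0.87), Osgepl1, which modifies adenosine beside the anticodon (-0.64), and Trit1, which adds an isopentenyl group there (0.67, the 1 called higher). Of 8 mitochondrial translation factors, 5 were called lower (62.5%) and 0 higher (median -0.24), led by Mrrf, the ribosome recycling factor (-0.65), Mtrf1, a release factor (-0.88), and Gfm1, an elongation factor (-0.30). Of 5 cytosolic elongation factors, Eef1d (-0.41) and Eef1a2 (-0.26) were called lower and Eef2 higher (0.28). Trmt61b, Tufm and Eef1a1 were on these lists and are not analysed here.

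Of 9 kinases and effectors of the amino acid and stress response, 4 were called higher (44.4%) and 2 lower (22.2%), with a median log2 fold change of 0.27, where 25.6% and 25.5% of all rows were called. Eif2ak4, the kinase that senses uncharged tRNA, was at 10.2 to 13.5 CPM in WT and 17.99 to 24.5 in KO (log2 fold change 0.72, adjusted p = 7.633e-06), and Eif2s1, the subunit it phosphorylates, was lower (-0.36). Atf4 was at 74.7 to 91.4 CPM in WT (median 89.1) and at 103.0 to 117.2 in KO (median 106.1), without overlap (log2 fold change 0.32, adjusted p = 0.0001212). Atf4 is known to be controlled at translation, which mRNA counts do not measure. Of 26 tested genes listed as ATF4 targets other than synthetases, 14 were called higher (53.8%) and 5 lower (19.2%), with a median of 0.40, led by Nupr1, a stress regulator (2.05), Slc3a2, a chain of amino acid transporters (0.71), and Cth, which makes cysteine from cystathionine and was called lower (-2.15). Among the 20 cytosolic synthetases the median was -0.02.

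Tarsl2, outside the list of names, is given here after its values were seen. It ran from 52.8 to 60.3 CPM in WT and from 30.1 to 34.1 in KO, without overlap (log2 fold change -0.82, adjusted p = 1.893e-09), where Tars was not called.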

How the data were processed

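Ventricular wall tissue from 6 WT and 6 KO mice was lysed in TRIzol and sequenced as poly-A mRNA. The authors mapped reads with HISAT2 2.0.5 (mm10, per the submitters' processing notes), counted them per gene with HTSeq and deposited raw counts. The authors also deposited FPKM, computed from counts and a gene length. Identifiers are of the C57BL/6NJ assembly, and 0 of 36 members start within 1000 bases of their GRCm38 position, so the table's coordinates were printed as C57BL/6NJ and RefSeq sequences as GRCm38.p6. The table also holds the authors' scaled group means, fold changes and p-values, which were not used. Whether counting used strand is not given in the sources used here. Both groups were assigned from the labels. The controls were littermates, and no source used here ties a library to a litter, so p-values measure the spread between these samples.

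Counts were analysed with edgeR 4.0.16 in R 4.3.3 (TMM, filterByExpr, robust quasi-likelihood test, Benjamini-Hochberg adjustment over 17155 rows), and CPM are TMM-scaled. Library totals were 23747014 to 31393393 counts, and replicate pairs differed by more than counting error (chi-square per degree of freedom 7.41 to 52.6), so none was treated as 1 sample. Pair ratios were log2 of counts plus 0.5. On simulated counts for 16953 genes, 184 of 200 changed genes were recovered with 10 false calls. The simulated log2 changes were of size 1, in genes with a mean over 1 CPM, and were larger than those of all members except Cars2. Recovery of smaller changes was not simulated. The members, lists, motifs and the rule for named genes were chosen with earlier results of these data known: every member is named with its log2 fold change, ranges are given for the 6 called members of each compartment with the largest change and for called members that moved against the majority of their compartment, and of each list the 3 called genes with the smallest p, and Atf4, are named. Alternatives were other scalings, DESeq2 1.42.0, limma-voom (limma 3.58.1), dispersions without robust estimation, other filters, removal of unannotated loci, a replicate block, each library left out, a pseudocount of 5, and another gene length, and, added after the data were seen, Farsb in place of Farsa. The promoter windows were searched for the motifs as exact letters. Protein sequences were not used here. A result on 1 further gene is not reported here.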

Additional observations from a re-analysis of the deposited data

Results flagged for a closer look

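Of 74 groups of 6 hearts (the CPM of each member and of Sdhaf4 in WT and in KO), 2 had a heart whose gap to the nearest other heart was larger, relative to the group's range, than Dixon's 95% critical value, and chance gives about 3.7. Kars was at 123.9 CPM in WT replicate 5, where the other WT hearts were at 111.1 to 114.2, and the log2 fold change of Kars without that library was -0.39 (-0.41 with it). Sdhaf4 was at 2.73 CPM in KO replicate 1, where the other KO hearts were at 2.25 to 2.42.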

How the results depend on the processing

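Over 10 alternative scalings, tests and filters and 12 fits that each left out a library, 765 of 792 log2 fold changes of members kept their direction and their side of the threshold. In 12 the call was lost (Cars and Mars), in 5 one was gained (Rars2 and Pars2), and 10 changed sign, all in genes that were not called. These were Hars2 (0.001871 with at least 1 CPM in 6 libraries, and -0.04046 to 0.02573 when 1 library was left out), Farsa (-0.0427 to 6.252e-05), Tars (-0.06958 to 0.004528) and Vars2 (-0.003498 to 0.06246). The ratio Vars/Vars2 ranged from -0.0113 to 0.06805. With 1 library left out, mitochondrial members called higher numbered 0 to 1 (Pars2 without KO replicate 4) and pairs with a lower ratio in KO 1 to 2 (Wars/Wars2 was added without WT replicate 5), while pairs with a higher ratio numbered 7 to 10 (Hars/Hars2, Iars/Iars2 and Rars/Rars2 were added without KO replicate 5, Iars/Iars2 without KO replicate 6, Hars/Hars2 without WT replicate 4 and Eprs/Ears2 without KO replicate 3), and 6 with Farsb in place of Farsa. The cause was not tested. The same replicate number does not pair the hearts (correlations of deviations -0.16 to 0.02, and 1 of 6 best matched its own number). With the replicate number as a block, the calls of Cars (adjusted p = 0.0727) and Mars (adjusted p = 0.0587) were lost, 5 cytosolic members were called higher and 7 lower, and 6 mitochondrial members were called lower. Members under 10 CPM, such as Ears2, Pars2, Sars2 and Wars2, had the largest standard errors.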
